A study of Rattus norvegicus with 12 samples.

Results

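The Fos and Jun genes code for the subunits of AP-1, a transcription factor that works as a dimer. The set described here is the 4 Fos family genes Fos, Fosb, Fosl1 and Fosl2 and the 3 Jun family genes Jun, Junb and Jund, measured by every probe set whose annotation gives 1 of these symbols and no other. These were 13 of 31042 probe sets, 6 for the Fos family and 7 for the Jun family, and all 7 genes had at least 1. The probe sets were taken by gene symbol, and the family was chosen with earlier results of these data known.

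Forebrain RNA came from 12 male Long Evans rats, 6 weeks old and housed singly for several days. In the exposed group 6 animals had spent 3 hours in a new environment with objects of different shapes and colours, and in the control group 6 animals had stayed in a standard laboratory cage. Each animal was measured on 1 Affymetrix array, from total RNA of the forebrain. The labels state that the series was made to find genes that rise on exposure to a new environment.

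Fos and Jun proteins pair through a leucine zipper and bind DNA through an adjoining basic region. Fos proteins need a Jun protein as partner, whereas Jun proteins also pair with each other. In neurons, synaptic activity and calcium entry switch on several of these genes within minutes through factors already in place, and the new subunits then act on later genes. Fos RNA and protein are widely used to mark neurons that were recently active, and the stable short form of FosB is known for building up in the striatum when stimulation is repeated.

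After exposure, 3 of the 4 Fos family genes and 1 of the 3 Jun family genes were higher. Fos rose 6.84-fold, Fosb 5.51-fold, Fosl2 2.22-fold and Junb 2.10-fold at the brightest probe set of each gene (6 animals per group). Fosl1 did not pass the test, with 1.18-fold, and neither did Jun, with 0.99-fold, or Jund, with 0.98-fold. Of the 13 probe sets 5 rose and 0 fell at an adjusted p under 0.05 in limma, where 1.97% of all probe sets rose and 0.599% fell. The same 5 were the probe sets in which every exposed animal lay above every control animal, which held for 1.98% of all probe sets.

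Upstream sequence is shown for Junb, which rose, and Jund, which did not, because both code for Jun partners. The RefSeq promoter table, of build GRCr8, matched 5 of the 7 genes, namely Fosb, Fosl1, Fosl2, Junb and Jund. The 250 bases before the annotated start are printed 5′ to 3′ on the strand of the gene, chr19:40080876-40081125 on the plus strand for Junb and chr16:18769772-18770021 on the minus strand for Jund. Capitals mark any match, on either strand, to the cAMP response element TGACGTCA, its short form TGACG, the AP-1 site TGANTCA, the CArG box that serum response factor binds, the TATA box TATAAA or the CCAAT box.

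Junb: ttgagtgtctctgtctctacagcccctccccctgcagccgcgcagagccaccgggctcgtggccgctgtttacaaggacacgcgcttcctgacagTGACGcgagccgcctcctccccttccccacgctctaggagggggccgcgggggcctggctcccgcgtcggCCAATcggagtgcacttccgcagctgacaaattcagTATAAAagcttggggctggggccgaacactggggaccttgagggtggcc

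Jund: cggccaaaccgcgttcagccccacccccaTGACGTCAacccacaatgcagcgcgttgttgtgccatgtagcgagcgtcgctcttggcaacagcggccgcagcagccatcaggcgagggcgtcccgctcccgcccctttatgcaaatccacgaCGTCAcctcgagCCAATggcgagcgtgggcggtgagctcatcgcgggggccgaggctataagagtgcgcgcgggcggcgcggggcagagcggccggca

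The Junb window held 1 short form, starting 155 bases before the start, 1 CCAAT box at 85 bases and 1 TATA box at 49 bases. The Jund window held 1 full response element at 221 bases, within which the short form matches on both strands, a further short form on the opposite strand at 98 bases and a CCAAT box at 86 bases. Neither window contained the AP-1 site or the CArG box. The window of Fosl2, which rose, held none of the 6 motifs, and that of Fosl1 held 2 short forms. The window of Fosb lay inside the annotated gene and is not printed. Among all 33469 windows of this length, 18.2% held the short form, 1.59% the full element, 6.34% the AP-1 site, 1.5% the CArG box, 12.9% TATAAA and 34% CCAAT. These matches describe letters and do not show binding.

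Fos, the member most often used to mark active neurons, had the largest change of the family. At its brighter probe set (1375043_at) the lowest, median and highest intensities were 1718, 2027 and 2279 in exposed animals, against 185, 287 and 386 in control animals. Intensities are the deposited linear values in arbitrary units, and they cannot be compared in level between probe sets. The lowest exposed animal was 4.45 times the highest control animal, so the groups were far apart. The log2 change was 2.77 ± 0.16 (exposed minus control, standard error of the limma fit, adjusted p = 8.65e-06), with a 95% interval of 2.42 to 3.13. In forebrain tissue, a larger number of cells with Fos RNA and more Fos RNA per cell cannot be told apart, and this holds for each gene below.

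The other Fos probe set (1371283_at) was dim and did not follow. Its lowest, median and highest intensities were 85.1, 94.4 and 110.0 in exposed animals, against 88.3, 97.6 and 102 in control animals. The groups overlapped almost fully, with 1 exposed animal above every control. Its log2 change was -0.02 ± 0.06 (adjusted p = 1 in limma). The change at this probe set was smaller by 2.80 ± 0.18 on the log2 scale than at the brighter one, a difference that passed in limma over 6609 such pairs of all genes (adjusted p = 4.18e-05). Both carry the symbol Fos in the annotation, from different sequence records, and where on the transcript either lies was not analysed here.

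**Figure D1:**
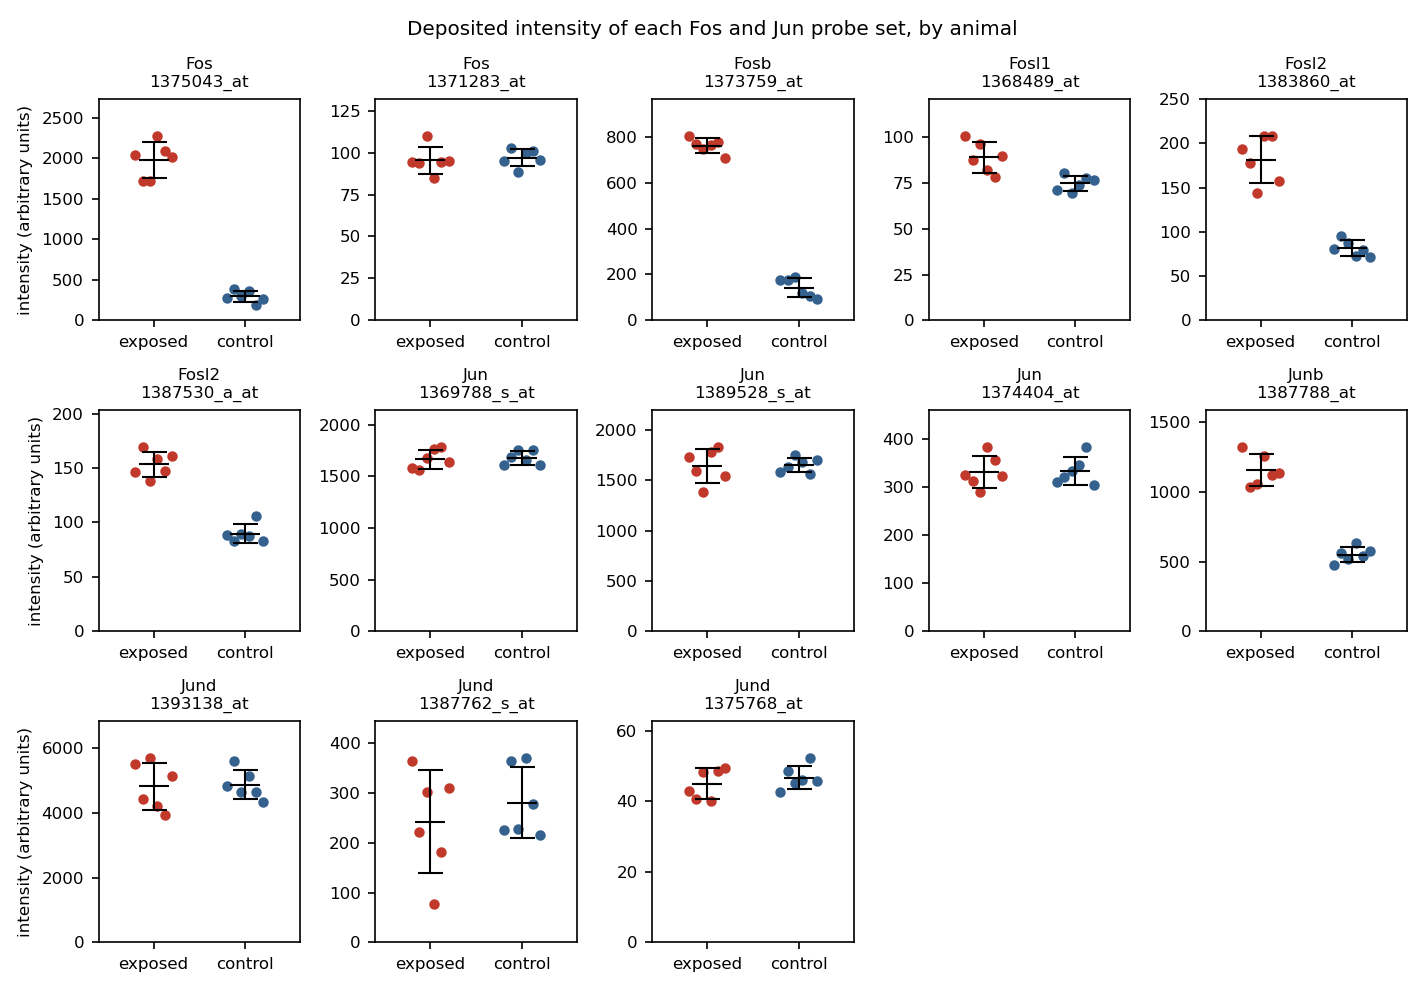
Deposited intensity (arbitrary units, linear axes from 0) of the 13 Fos and Jun probe sets, with 1 point per animal and black bars for the mean and SD of the 6 animals of each group, exposed on the left and control on the right. The groups are separate for the brighter Fos probe set, Fosb, both Fosl2 probe sets and Junb, and overlap in the other 8.

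Fosb, whose gene gives both full-length FosB and the stable short form, had 1 probe set. Its lowest, median and highest intensities were 709, 767 and 804 in exposed animals, against 95.3, 146 and 190 in control animals. Every exposed animal was at least 3.73 times the highest control animal. This was a log2 change of 2.46 ± 0.17 (adjusted p = 2.82e-05 in limma, 95% interval 2.08 to 2.84). A single probe set does not separate the full-length and short transcripts.

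The spread of Fosb between animals, taken relative to the mean, was smaller in exposed animals. The coefficient of variation was 4.19% over the 6 exposed animals and 28.8% over the 6 control animals. For Fos it was 11.1% in exposed animals and 24.5% in control animals. In intensity units the SD of Fosb was 31.9 in exposed and 41.2 in control animals. That of Fos was larger in exposed animals, at 220 against 72.3. These differences in spread were not tested. Exposed animals had Fosb intensities of 804, 768 and 746 in those numbered 1 to 3 in the labels and 765, 778 and 709 in those numbered 4 to 6, which overlap. Control animals numbered 1 to 3 had 174, 175 and 190, and those numbered 4 to 6 had 118, 106 and 95.3, without overlap. At the brighter Fosl2 probe set control animals also split this way, at 81.2, 95.6 and 87.0 against 73.0, 79.3 and 71.8. How often such a split occurs over all probe sets was not counted. No label explains the numbering of the animals. Over animals 1 to 3 alone the log2 change of Fosb was 2.10 (adjusted p = 0.00337 in limma) and within animals 4 to 6 it was 2.82 (adjusted p = 0.00438), and whether these differ was not tested.

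Fosl2, which codes for Fra-2, rose by less. At the brighter probe set (1383860_at) the lowest, median and highest intensities were 144, 185 and 208 in exposed animals, against 71.8, 80.3 and 95.6 in control animals. The log2 change was 1.15 ± 0.11 (adjusted p = 0.000201 in limma). At the other one (1387530_a_at) they were 138, 153 and 169 in exposed animals, against 83.0, 88.4 and 106 in control animals, a log2 change of 0.77 ± 0.07 (adjusted p = 0.000132). The groups did not overlap in either probe set. The smaller change at the second, by 0.38 ± 0.12 on the log2 scale, did not pass over the 6609 pairs (adjusted p = 0.273). Both probe sets were dim in control animals, at 71.8 to 106 against the floor of 53.8 to which intensities were raised before the test. With a floor of 148, the 40th percentile of all intensities, the log2 changes were 0.29 and 0.07 and neither passed (adjusted p = 0.120 and 0.474). That floor covered 1 of 6 exposed and 6 of 6 control animals at the brighter probe set, and 3 of 6 exposed and 6 of 6 control animals at the other, so it removed part of the measured difference.

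Fosl1, which codes for Fra-1, was dim and close to the threshold of the test. Its lowest, median and highest intensities were 78.6, 88.6 and 101 in exposed animals, against 69.8, 75.5 and 80.4 in control animals. Of the exposed animals 5 of 6 lay above every control. Its log2 change of 0.24 ± 0.06, with a 95% interval of 0.11 to 0.38, did not pass (adjusted p = 0.0702 in limma, unadjusted p = 0.00224). It passed in 2 of 25 alternatives, without exposed animal 5 (log2 change 0.28, adjusted p = 0.0332) and with array weights (0.29, adjusted p = 0.0289), and over all 25 the adjusted p ran from 0.0289 to 1.

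**Figure D2:**
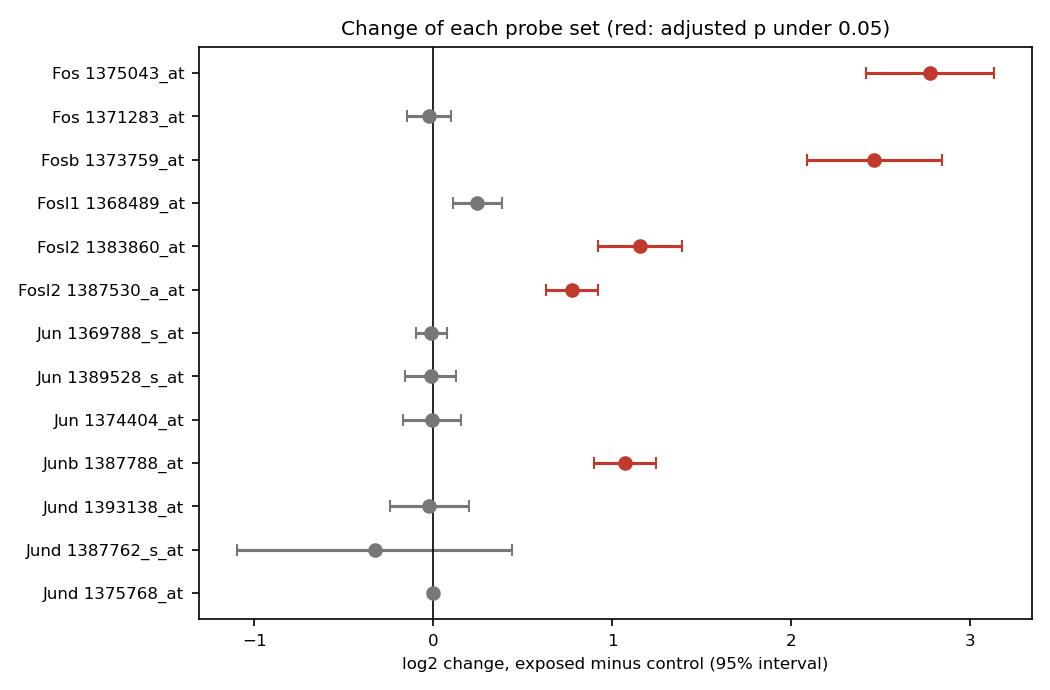
Log2 change, exposed minus control, of each of the 13 probe sets with its 95% interval from the limma fit (6 animals per group). The 5 red points passed at an adjusted p under 0.05, and the interval of the dimmest Jund probe set has no width because all 12 animals were at the floor.

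Among the Jun partners, Junb was the one that was higher after 3 hours. JunB is often described as a weaker activator than Jun on simple AP-1 sites and is itself an early gene. The lowest, median and highest intensities were 1032, 1129 and 1322 in exposed animals, against 475, 549 and 634 in control animals. The lowest exposed animal was 1.63 times the highest control animal. This gave a log2 change of 1.07 ± 0.08 (adjusted p = 4.18e-05 in limma, 95% interval 0.90 to 1.24), and the coefficient of variation was 9.86% in exposed animals and 9.81% in control animals.

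Jun, the founding member of its family and an early gene in many cultured cells, gave values near no change at all 3 of its probe sets. At the brightest (1369788_s_at) the lowest, median and highest intensities were 1561, 1659 and 1787 in exposed animals, against 1611, 1674 and 1760 in control animals. The ranges overlapped, and the exposed animals held both the lowest and the highest value. The log2 change was -0.01 ± 0.04 (adjusted p = 1 in limma), and its 95% interval ran from 0.935-fold to 1.05-fold. The log2 changes at the other 2 were -0.02 ± 0.06 (1389528_s_at) and -0.01 ± 0.07 (1374404_at), and these were annotated from the same sequence record, so they are not independent readings. The interval of Jun therefore ended below that of Junb, which began at 1.86-fold. Exposed animals were measured after 3 hours only, so changes of Jun or Jund at other times were not measured.

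Jund, which is expressed steadily in many tissues, was also near no change where it was well measured. At its brightest probe set (1393138_at) the lowest, median and highest intensities were 3940, 4778 and 5695 in exposed animals, against 4332, 4738 and 5586 in control animals. The log2 change was -0.02 ± 0.10 (adjusted p = 1 in limma), with a 95% interval of 0.845-fold to 1.15-fold. The second probe set (1387762_s_at) varied widely, with 78.0, 262 and 364 as lowest, median and highest in exposed animals, against 217, 252 and 371 in control animals. Its log2 change was -0.33 ± 0.35 (adjusted p = 0.855), an interval from 0.467-fold to 1.36-fold that leaves changes of that size undetectable. Without exposed animal 4, which had the 78.0, the log2 change was -0.03 (adjusted p = 1, and 0.621 to 1 over the alternatives). The third (1375768_at) lay between 40.1 and 49.6 in exposed animals and between 42.6 and 52.3 in control animals, below the floor on all 12 arrays.

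**Figure D3:**
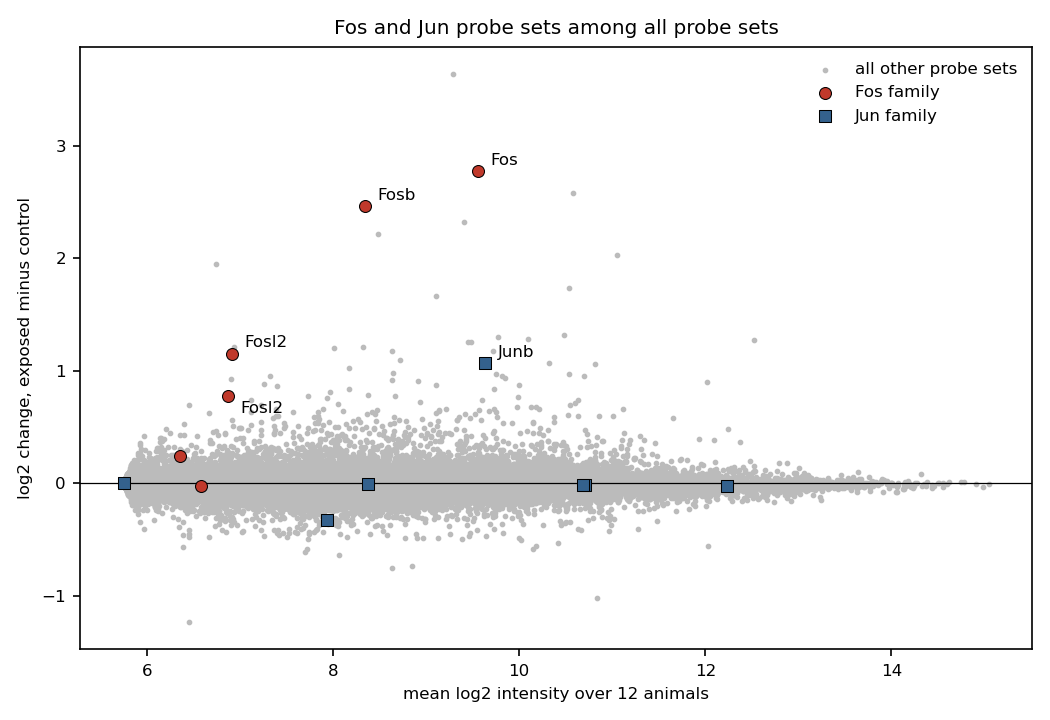
Mean log2 intensity over the 12 animals (horizontal) and log2 change, exposed minus control (vertical), of all 31042 probe sets in grey, with the Fos family as red circles and the Jun family as blue squares. Fos at 2.77 and Fosb at 2.46 stand near the top of the plot, Fosl2 and Junb lie between 0.77 and 1.15, and the other members lie within the grey band.

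Ordered by the change at the brightest probe set, the sequence was Fos, Fosb, Fosl2, Junb, Fosl1, Jun and Jund. The control means of these probe sets lay at different distances from the floor of 53.8. They were 75.1 for Fosl1, 81.3 for Fosl2, 143 for Fosb, 296 for Fos, 550 for Junb, 1681 for Jun and 4863 for Jund. Whether this shaped the order was not tested. Set against the mean of the control animals, the log2 values of the 6 exposed animals ran from 2.58 to 2.99 for Fos and from 2.36 to 2.54 for Fosb, without overlap. Fos exceeded Fosb in 6 of 6 animals by 0.31 ± 0.16 (SD, n = 6). The control spread of each gene was wider than this gap, and the 95% intervals of the 2 changes overlapped. Fosl2 and Junb could not be ordered, since Fosl2 exceeded Junb in 3 of 6 exposed animals by 0.08 ± 0.18 (SD, n = 6). This place depends on the probe set, since the brightest is set by the mean over all 12 animals. At the other Fosl2 probe set, the brighter one in control animals, Junb exceeded Fosl2 in 5 of 6 exposed animals by 0.30 ± 0.19 (SD, n = 6). Fosb exceeded Fosl2 by at least 1.11 and Junb exceeded Fosl1 by at least 0.59 in every exposed animal. Fosl1 and Jun overlapped, as did Jun and Jund. These differences between genes were not tested.

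**Figure D4:**
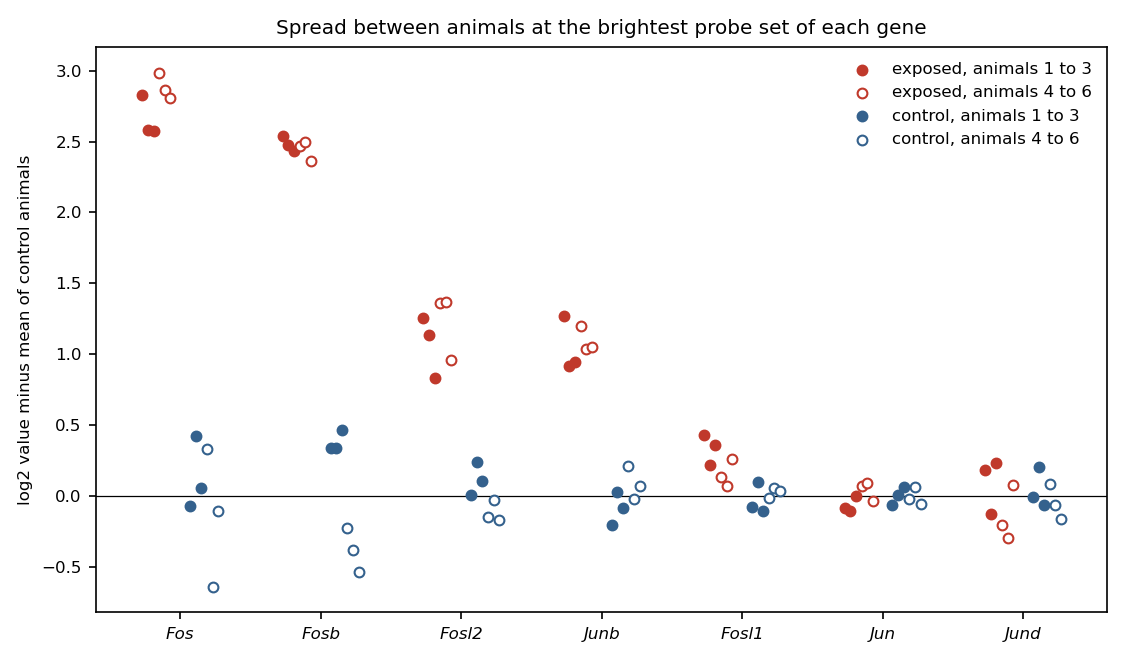
Log2 value of each animal minus the mean of the 6 control animals, at the brightest probe set of each gene, with exposed animals in red to the left and control animals in blue to the right. Filled points are animals numbered 1 to 3 and open points those numbered 4 to 6. In Fosb and in Fosl2 the filled and open control points do not overlap.

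Within a group, animals with more Fos RNA could not be shown to have more of the other subunits. In exposed animals Fos and Junb had Pearson's r = 0.77 (exact permutation p = 0.0778, n = 6) and Spearman's rho = 0.66 (exact permutation p = 0.175), and r fell to 0.25 without the 2 animals farthest from the median of Fos. Fos and Fosl2 had r = 0.73 (exact permutation p = 0.0972, n = 6) and rho = 0.89 (exact permutation p = 0.0333), with r = 0.67 without the 2 farthest animals. After Benjamini-Hochberg over the 12 relations of Fos with the other 6 genes in the 2 groups, the smallest adjusted value was 0.45 for r and 0.40 for rho. Fos and Fosb had r = 0.18 in exposed animals (exact permutation p = 0.767, n = 6) with rho = 0.37 (exact permutation p = 0.497), and r = 0.20 without the 2 farthest animals. The sign was not the same for all genes. In exposed animals Fos had r = 0.58 with Jun, -0.44 with Fosl1 and -0.45 with Jund (n = 6). In control animals r ran from -0.30 with Jun to 0.69 with Jund (n = 6).

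Profiles like those of the 4 genes that rose were sought over all 14217 genes other than the 7 Fos and Jun genes. Likeness was the root mean square difference, over the 12 animals, between log2 values centred on the control mean. For Fos the 3 nearest genes were Arc, which codes for a synaptic protein (0.31), Egr2, a zinc finger factor (0.65), and the nuclear receptor Nr4a1 (0.79), where the median over all genes was 1.98. For Fosb they were Arc (0.43), Inhba, an activin subunit (0.60), and Nr4a1 (0.66), with a median over all genes of 1.76. Egr4 (0.14), the stress gene Gadd45b (0.16) and the cyclooxygenase gene Ptgs2 (0.17) were nearest to Fosl2, with a median of 0.84. For Junb the nearest were the MAP kinase phosphatase gene Dusp1 (0.09), the early gene Ier5 (0.12) and the pseudokinase gene Trib1 (0.16), with a median of 0.77. The difference depends mostly on the size of the change, but the nearest genes did not all rise equally. Beside Fos at a log2 change of 2.77, Arc rose by 2.57, Egr2 by 3.63 and Nr4a1 by 1.74. Beside Fosb at 2.46, Inhba rose by 1.67.

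Genes described elsewhere as AP-1 targets included 30 that were measured, and 8 of them rose and 0 fell in limma. Over all 14217 genes 2.62% rose and 0.844% fell, with the brightest probe set of each gene. The median log2 change of the 30 genes was 0.10 and that of all genes was 0. Inhba averaged 998 ± 189 in exposed animals and 314 ± 57.4 in control animals (SD, n = 6 each), a 3.18-fold rise (adjusted p = 0.000201 in limma). Dusp1 rose 2.08-fold (adjusted p = 0.000301) and the neurotrophin gene Bdnf 1.96-fold (adjusted p = 0.00391). Rgs2, a regulator of G protein signalling, rose 1.31-fold (adjusted p = 0.000413). Smaller rises were those of Nfkb1, a subunit of NF-kappa-B, by 1.15-fold (adjusted p = 0.00761) and of Scg2, a secretory granule protein gene, by 1.11-fold (adjusted p = 0.000401). All 6 exposed animals were above all controls for these 6 genes, which held for 1.98% of all probe sets. The 6 were named because they had the smallest p of the 8 that rose, so this separation adds no further evidence. The list was chosen with earlier results of these data known, and several of its genes are also direct targets of other activity-dependent factors.

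Of the other proteins that can pair with Fos or Jun, from the ATF, BATF, Maf and related families, 17 were measured, of which 2 rose and 0 fell, against 2.62% and 0.844% of all genes. Ddit3, a stress-responsive C/EBP relative, averaged 795 ± 41.8 in exposed animals and 595 ± 44.6 in control animals (SD, n = 6 each), a 1.34-fold rise (adjusted p = 0.00121 in limma). Atf4, a factor of the amino acid and endoplasmic reticulum stress response, rose 1.09-fold (adjusted p = 0.0481). The call of Atf4 was kept in 7 of 26 alternatives, with adjusted p from 0.0236 to 0.534. Over the 17 genes the median log2 change was 0.01.

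Of the kinases upstream of AP-1, 15 were measured, and 1 of them rose and 0 fell, beside the 2.62% and 0.844% of all genes that rose and fell. Without exposed animal 6 the count that passed was 2. Map2k3, which activates p38 kinases, averaged 469 ± 30.7 in exposed animals and 325 ± 10.2 in control animals (SD, n = 6 each), a 1.44-fold rise (adjusted p = 0.000104 in limma). The log2 changes of this list ran from -0.27 to 0.52, with a median of -0.02. Among 18 factors and coactivators that act at the promoters of Fos and Jun genes, 2 rose and 0 fell against the same shares of all genes, with a median log2 change of 0.05. Srf, which codes for serum response factor, averaged 1574 ± 75.5 in exposed animals and 1293 ± 54.9 in control animals (SD, n = 6 each), a 1.22-fold rise (adjusted p = 0.00191). Crem, whose gene also gives the inducible repressor ICER, rose 1.83-fold (adjusted p = 0.00191). Of the 4 measured genes for the degradation of AP-1 subunits 0 passed in limma, and 0 had an unadjusted p under 0.05, while 1 passed without exposed animal 5.

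**Figure D5:**
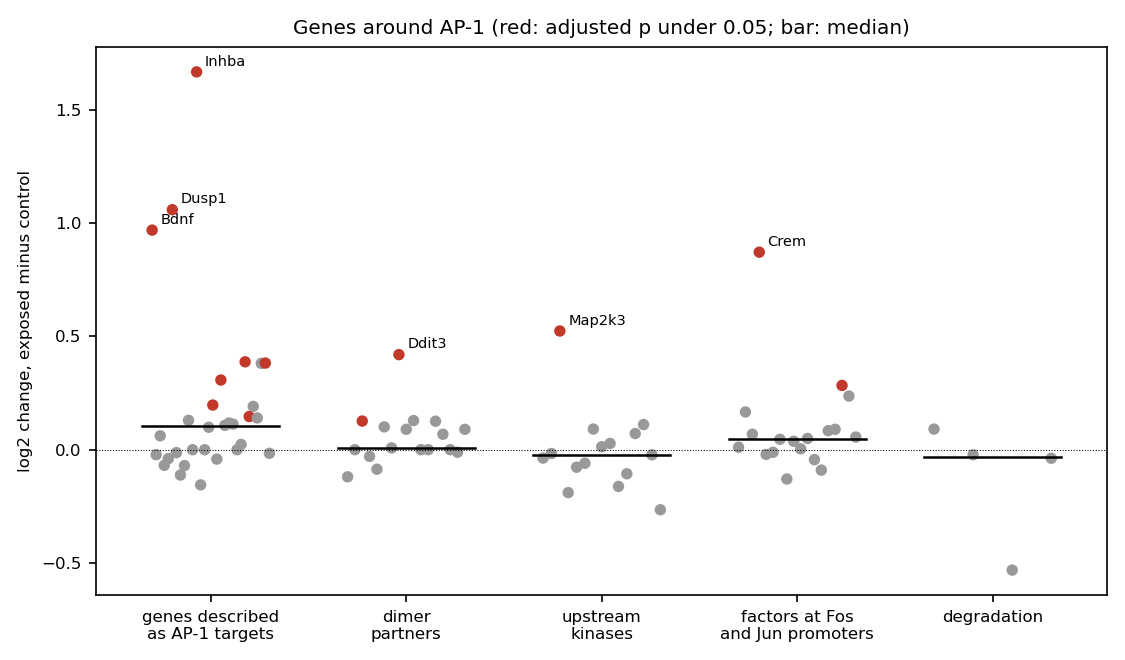
Log2 change, exposed minus control, of the genes of 5 lists around AP-1, with 1 point per gene at its brightest probe set, red for an adjusted p under 0.05 and a black bar at the median of the list. Inhba at 1.67 is the highest point among the described targets, and Crem, Map2k3 and Ddit3 are the highest of the factors, the kinases and the dimer partners.

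Markers of cell types were checked beside these results. Of 46 measured markers in 8 lists 0 rose and 1 fell, the endothelial transporter gene Slco1a4 (log2 change -0.29, adjusted p = 0.00364 in limma). Over all 14217 genes 2.62% rose and 0.844% fell, so counts this small do not set the markers apart. The summed intensity of the 9 neuron markers was 60733 to 64178 in exposed animals and 61036 to 64102 in control animals. That of the 7 endothelial markers was 6241 to 6997 in exposed animals and 6825 to 7392 in control animals, with 0 of 7 log2 changes positive and a median of -0.05. That of the 5 meningeal markers was 5159 to 6699 in exposed animals and 6046 to 7298 in control animals. Of their log2 changes 0 of 5 were positive, with a median of -0.16, and 2 of 5 had an unadjusted p under 0.05 in limma. Over all 31042 probe sets 4094 had an unadjusted p under 0.05. The part of either list in the rise of the Fos and Jun genes was not tested. Controls for RNA quality on the array, taken as 3 prime minus 5 prime signal of Gapdh and beta-actin, ran from 0.39 to 0.59 in exposed animals and from 0.33 to 0.44 in control animals on the log2 scale. With it as a covariate the same 5 probe sets passed, Fos at a log2 change of 2.78 and Junb at 1.16.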

How the data were processed

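The authors deposited linear intensities, 1 for each probe set on each array, and their background correction, probe summary and normalization are not given in the sources used here. Of the deposited intensities, 31042 probe sets of transcripts were used and 57 array controls were left out. Array medians lay between 235 and 245, so no further normalization was applied. The number of arrays limits the precision. Intensities were raised to a floor at their 20th percentile (53.8) and taken to log2. Group was the only term in lmFit and eBayes with a trend (limma 3.58.1, R 4.3.3), with Benjamini-Hochberg over all probe sets, and the steps were tested on simulated data. Differences between probe sets of 1 gene were fitted likewise without a trend. Names come from the platform annotation and were checked by Entrez ID against RefSeq. Named genes are all member probe sets, up to 6 passing genes of each list with the smallest p, and the 3 nearest profiles of the 4 risers. Slco1a4 was named after its value was seen. Members and lists were chosen with earlier results of these data known. The p-values set the difference between the groups against the spread between animals. Deviations of same-numbered animals were at most weakly correlated (-0.08 to 0.16 over 6 pairs, not tested), so the numbers were not taken as pairs. The best-matching control had the same number for exposed animals 5 and 6 and another number for exposed animals 1 to 4.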

Additional observations from a re-analysis of the deposited data

Results flagged for a closer look

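At the second Fosl2 probe set (1387530_a_at), control animal 5 had an intensity of 106, apart from the other 5 control animals, with a gap to the nearest that was 0.703 of the range of the group. It stayed below the lowest exposed animal, at 138. Of 24 sets of 6 animals examined this way 1 stood out, and chance alone marks about 1 in 20. Without control animal 5 the probe set still passed in limma.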

How the results depend on the processing

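Of the 13 Fos and Jun probe sets 5 passed, all higher. With 1 animal left out in turn 5 to 6 passed, and over all probe sets 451 to 622 were higher and 103 to 182 lower. The lower count moved by over 1.5 times when exposed animal 1 (104), control 3 (103), control 5 (112) or control 6 (117) was left out. Only 3 Fos and Jun probe sets passed without the dimmest 40% of probe sets, which leaves Fosl2 untested, and 3 with the floor at the 40th percentile. Over 3 animals per group, 2 passed within animals 1 to 3 (66 higher and 9 lower over all probe sets) and 1 within animals 4 to 6 (31 and 2). Over all probe sets the lower count was 314 with array weights, 72 with the RNA quality covariate and 82 without exposed animals 3 and 5 and control 4, and in these 3 settings the cause was not tested. With the replicate number as a block, 359 were higher and 76 lower, and the same 5 Fos and Jun probe sets passed. With animals 1 to 3 against 4 to 6 as a term instead, 714 were higher and 247 lower, and these 5 passed as well. What the numbers stand for is not known. Fosb passed in 26 of 26 alternatives, Fos in 25 and Junb in 24, the losses being within 3 animals per group. Fosl2 passed in 22 of the 25 that tested it, at either probe set. Over the alternatives the adjusted p ran from 5.17e-08 to 0.00443 for Fosb, 3.08e-05 to 0.120 for the brighter Fosl2 probe set and 2.19e-05 to 0.474 for the other. Values of Jun, Jund and the dimmer Fos probe set turned sign in some alternatives and passed in none. Vgf, among the described targets, kept its call in 8 of 26. Likeness and correlations were computed at 1 setting only.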
